A study of Mus musculus with 9 samples.

Results

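A set of transcripts of the thick ascending limb, the segment of the kidney tubule that takes salt back from the urine without water, was followed across the kidneys of mice with acute kidney injury. The 8 genes are Umod, Slc12a1, Kcnj1, Bsnd, Casr, Ppp1r1a, Wfdc15b and Tmem207, taken by name from the 56923 genes of the count table, and all 8 passed the filter on low counts. The study asked what the phosphatase PTP1B does in acute kidney injury and used an siRNA against it, carried by extracellular vesicles from milk. Total RNA from kidneys of WT mice was sequenced in 9 libraries, 3 in each of 3 groups. In AKI_PTPi_mEVs the mice had acute kidney injury and were given the siRNA-loaded vesicles (treatment PTPi@mEVs, which 1 title spells PTP@mEVs). In AKI_PBS the mice had the injury and were given PBS. Sham mice, the Normal mice of the titles, had surgery but no ischaemia-reperfusion (IR) injury, and their treatment is also given as PBS. The time after injury, age, sex, dose and batch are not given in the labels. No group analysed here received empty vesicles or a control siRNA, so effects of the vesicle and of its cargo cannot be told apart. Whether libraries of a group stem from different mice is not labelled, so the p-values below measure the spread between these libraries.

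Cells of the limb take sodium, potassium and chloride from the tubule fluid through a cotransporter on their urinary side. Potassium returns to the fluid through a channel, chloride leaves to the blood side through channels that need an accessory subunit, and the sodium pump drives the process. The resulting voltage pulls calcium and magnesium between the cells through claudins. The cotransporter is the target of loop diuretics, and loss of the cotransporter, the potassium channel or the chloride channel subunit causes Bartter syndrome in people. The segment also makes uromodulin, the main protein of normal urine.

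The bases before the start of transcription are shown for 4 genes, 1 for each way in which the 8 genes behaved. Umod differed little between groups, Kcnj1 was low in AKI_PBS kidneys and near its sham level in AKI_PTPi_mEVs kidneys, Slc12a1 lay between its AKI_PBS and sham levels in AKI_PTPi_mEVs kidneys, and Wfdc15b was low in both injured groups. The sequences are RefSeq's, on GRCm38.p6, read 5′ to 3′ on the gene's strand, and stop before any annotated exon of the gene. Capitals mark the letters of the motif described next, found by a search of both strands.
Umod: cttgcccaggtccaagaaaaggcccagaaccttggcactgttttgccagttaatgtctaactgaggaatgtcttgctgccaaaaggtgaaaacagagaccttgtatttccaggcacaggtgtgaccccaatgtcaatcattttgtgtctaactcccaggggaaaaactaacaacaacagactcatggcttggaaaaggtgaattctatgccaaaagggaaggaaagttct
Slc12a1: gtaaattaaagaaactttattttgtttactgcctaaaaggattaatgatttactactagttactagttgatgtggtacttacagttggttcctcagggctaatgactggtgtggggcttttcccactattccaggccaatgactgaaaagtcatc
Kcnj1: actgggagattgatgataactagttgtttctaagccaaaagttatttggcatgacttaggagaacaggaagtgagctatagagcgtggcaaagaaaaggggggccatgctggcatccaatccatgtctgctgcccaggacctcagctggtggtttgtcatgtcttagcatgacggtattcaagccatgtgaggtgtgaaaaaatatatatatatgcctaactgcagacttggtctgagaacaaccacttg
Wfdc15b: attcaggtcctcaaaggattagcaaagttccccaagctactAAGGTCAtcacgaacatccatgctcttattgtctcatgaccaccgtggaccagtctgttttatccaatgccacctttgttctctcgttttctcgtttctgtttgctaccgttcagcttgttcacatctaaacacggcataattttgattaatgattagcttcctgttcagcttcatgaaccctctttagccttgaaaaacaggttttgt
The Umod stretch is chr7:119479283-119479512 on the minus strand, and the Slc12a1 stretch is chr2:125152350-125152504 on the plus strand. The Kcnj1 stretch is chr9:32393735-32393984 on the plus strand and lies within the gene, before an internal start. The Wfdc15b stretch is chr2:164221664-164221913 on the minus strand.

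The search covered 1 motif within 250 bases before the start, for 6 of the 8 genes and for all 32851 entries of the RefSeq table. AAGGTCA, the letters bound by estrogen-related receptors, was in 4.08% of all entries and in 2 of the 6, Wfdc15b from position -209 and Tmem207 from position -140 on the other strand. Umod, Slc12a1, Kcnj1 and Casr did not have these letters in the window. The matches are a description of letters and were not tested for binding.

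Library totals lay between 9467851 and 11389479 counts, a ratio of 1.20, and levels are given as CPM, the counts scaled to a common library size, after TMM scaling. Ptpn1, which encodes PTP1B, had 106, 106 and 94.0 CPM in AKI_PTPi_mEVs kidneys, 123, 148 and 170 CPM in AKI_PBS kidneys, and 80.9, 90.5 and 98.8 CPM in sham kidneys. Its AKI_PTPi_mEVs level was lower than that of AKI_PBS by 0.53 ± 0.15 on the log2 scale (edgeR quasi-likelihood test, adjusted p = 0.00862). AKI_PBS replicate 3 stood apart from the other two of its group on the third principal component, with a score of 44.1 against -28.3 and -20.6.

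In AKI_PBS against sham, all 8 genes fell (8 of 8 at a Benjamini-Hochberg adjusted p under 0.05 in edgeR's quasi-likelihood test over 17036 genes), where 27.9% of all tested genes were called lower and 55.7% in either direction. For 7 of the 8, all but Umod, every AKI_PBS library was below every sham library, as it was for 30.9% of all genes (31.2% the other way). The median log2 difference of the 8 was -2.21, and that of all tested genes was 0.03. Umod lost its call under some other settings, given with its values. In AKI_PTPi_mEVs against AKI_PBS, 6 of the 8 rose and 0 fell, where 25.4% of all genes were called higher and 51.1% in either direction, with a median of 0.94 for the 8 and -0.03 for all genes. The same 6, Slc12a1, Kcnj1, Bsnd, Casr, Ppp1r1a and Tmem207, were higher without overlap (28.7% of all genes, and 29.2% lower). For Tmem207 this separation held only after TMM scaling. In AKI_PTPi_mEVs against sham, 4 of the 8 (Slc12a1, Ppp1r1a, Wfdc15b and Tmem207) were lower and 0 were higher, where 5.79% of all genes were called lower and 13.2% in either direction, with medians of -0.73 and -0.01. Those 4 and Casr were lower without overlap (18.1% of all genes, and 21.2% higher). The first 2 comparisons share the AKI_PBS libraries, so a gene that is low there moves both. In kidney RNA, fewer cells of a type and less RNA per cell cannot be told apart, and the counts of a gene cannot be assigned to a segment of the tubule.

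**Figure D1:**
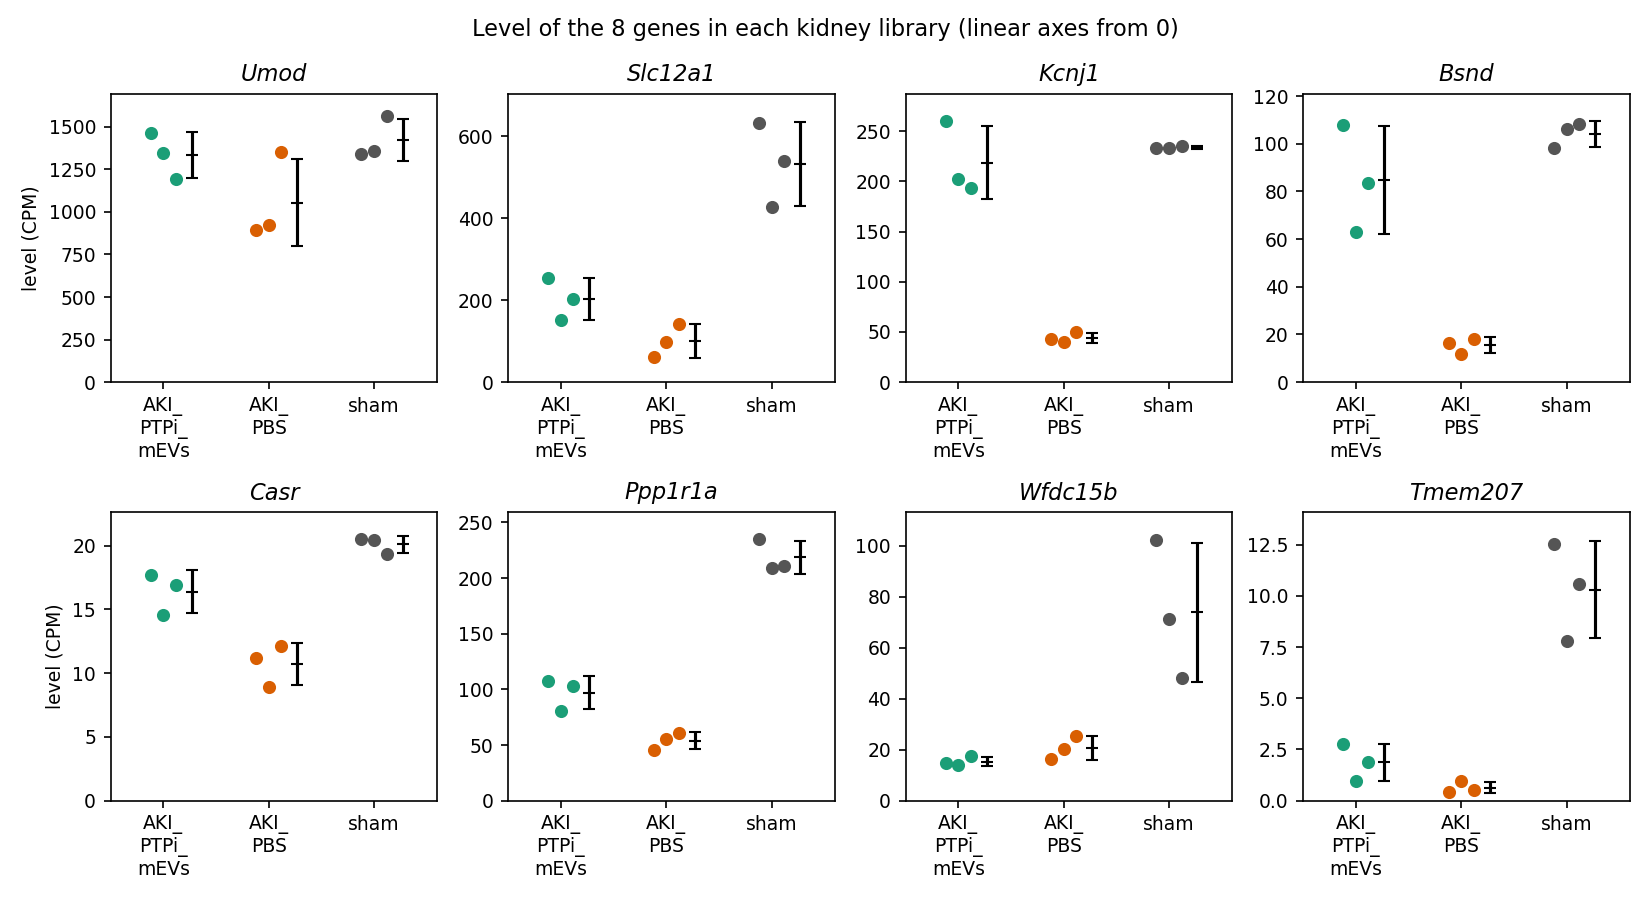
Level in CPM of each of the 8 genes in each library (points), with the mean and SD of the 3 libraries of a group beside them, on linear axes that start at 0. Kcnj1 averaged 219 CPM in AKI_PTPi_mEVs, 44.3 CPM in AKI_PBS and 234 CPM in sham, while Wfdc15b averaged 15.3, 20.6 and 73.8 CPM in the same groups.

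The cotransporter transcript was intermediate in AKI_PTPi_mEVs kidneys. Slc12a1 (ENSMUSG00000027202.13), which encodes the sodium-potassium-chloride cotransporter NKCC2, had 255, 153 and 204 CPM in AKI_PTPi_mEVs kidneys, 61.7, 97.6 and 143 CPM in AKI_PBS kidneys, and 632, 426 and 540 CPM in sham kidneys. The 3 groups did not overlap. Its log2 difference was -2.40 ± 0.28 (SE) in AKI_PBS against sham (adjusted p = 2.35e-05), a 5.30-fold lower level. In AKI_PTPi_mEVs it was 2.03-fold higher than in AKI_PBS (log2 difference 1.02 ± 0.27, adjusted p = 0.00807) and stood at 38.3% of sham (log2 difference -1.38 ± 0.27, adjusted p = 0.00728).

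The potassium channel and the chloride channel subunit were called lower in AKI_PBS but not in AKI_PTPi_mEVs against sham. Kcnj1 (ENSMUSG00000041248.10) encodes ROMK, the channel that returns potassium to the tubule fluid. It had 260, 203 and 193 CPM in AKI_PTPi_mEVs kidneys, 42.9, 40.1 and 50.02 CPM in AKI_PBS kidneys, and 233, 233 and 235 CPM in sham kidneys. Every AKI_PBS library was below every library of the other groups, and the AKI_PTPi_mEVs libraries lay on both sides of the sham ones. The log2 difference was -2.40 ± 0.15 in AKI_PBS against sham (adjusted p = 2.59e-07) and 2.30 ± 0.15 in AKI_PTPi_mEVs against AKI_PBS (adjusted p = 6.88e-07), a 4.94-fold higher level. Against sham, AKI_PTPi_mEVs differed by -0.10 ± 0.14 (adjusted p = 0.714), with a 95% interval of -0.41 to 0.21.

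Bsnd (ENSMUSG00000025418.8) encodes barttin, the subunit that carries the chloride channels to the membrane. It had 108, 62.9 and 83.6 CPM in AKI_PTPi_mEVs kidneys, 16.5, 12.01 and 18.3 CPM in AKI_PBS kidneys, and 98.1, 106 and 108 CPM in sham kidneys. AKI_PBS lay below the other two groups without overlap, while AKI_PTPi_mEVs and sham overlapped. It fell by 2.74 ± 0.21 on the log2 scale in AKI_PBS against sham (adjusted p = 7.26e-07) and was 5.44-fold higher in AKI_PTPi_mEVs than in AKI_PBS (log2 difference 2.44 ± 0.21, adjusted p = 2.64e-06). Its difference from sham in AKI_PTPi_mEVs was -0.29 ± 0.19 (adjusted p = 0.339, 95% interval -0.71 to 0.12).

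Casr and Ppp1r1a are regulators. Casr (ENSMUSG00000051980.14) encodes the calcium-sensing receptor, which lowers salt uptake in the limb when blood calcium is high. It had 17.7, 14.5 and 16.9 CPM in AKI_PTPi_mEVs kidneys, 11.2, 8.92 and 12.1 CPM in AKI_PBS kidneys, and 20.5, 20.5 and 19.3 CPM in sham kidneys. The groups did not overlap. In AKI_PBS against sham and in AKI_PTPi_mEVs against AKI_PBS the changes were smaller than those of Slc12a1, Kcnj1 and Bsnd. The log2 difference was -0.90 ± 0.17 in AKI_PBS against sham (adjusted p = 0.000726) and 0.61 ± 0.17 in AKI_PTPi_mEVs against AKI_PBS (adjusted p = 0.0104). AKI_PTPi_mEVs was not called against sham, at -0.29 ± 0.17 (adjusted p = 0.281, 95% interval -0.66 to 0.08).

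Ppp1r1a (ENSMUSG00000022490.8) encodes an inhibitor of protein phosphatase 1. It had 108, 80.2 and 103 CPM in AKI_PTPi_mEVs kidneys, 45.5, 55.4 and 60.6 CPM in AKI_PBS kidneys, and 235, 209 and 211 CPM in sham kidneys. The groups did not overlap, and AKI_PTPi_mEVs lay between the other two. The level fell by 2.02 ± 0.16 on the log2 scale in AKI_PBS against sham (adjusted p = 8.67e-07) and was 1.80-fold higher in AKI_PTPi_mEVs than in AKI_PBS (log2 difference 0.85 ± 0.15, adjusted p = 0.00058). AKI_PTPi_mEVs stood at 44.5% of sham (log2 difference -1.17 ± 0.15, adjusted p = 0.000645).

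Umod (ENSMUSG00000030963.7), which encodes uromodulin had the smallest difference of the 8 in AKI_PBS against sham. It had 1461, 1344 and 1193 CPM in AKI_PTPi_mEVs kidneys, 893, 921 and 1348 CPM in AKI_PBS kidneys, and 1339, 1360 and 1561 CPM in sham kidneys. The AKI_PBS and sham ranges overlapped through AKI_PBS replicate 3, the library that stood apart. The log2 difference in AKI_PBS against sham was -0.43 ± 0.17 (adjusted p = 0.0493, 95% interval -0.80 to -0.06), and the call was lost under 9 of 17 other settings, including the removal of any single sham library. AKI_PTPi_mEVs was not called against AKI_PBS (0.34 ± 0.17, adjusted p = 0.118) nor against sham (-0.09 ± 0.17, adjusted p = 0.776). Without AKI_PBS replicate 3, Umod was 0.56 higher in AKI_PTPi_mEVs than in AKI_PBS (adjusted p = 0.00808). Its exons overlap those of Gm44588 on the other strand over 539 bases, and that gene had 4 to 11 counts per library. Whether counting used strand is not given, so these counts do not show how the overlap affects Umod.

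Wfdc15b (ENSMUSG00000018211.14), a secreted protein of the whey acidic protein family, was low in both injured groups. It had 14.6, 14.1 and 17.4 CPM in AKI_PTPi_mEVs kidneys, 16.2, 20.2 and 25.4 CPM in AKI_PBS kidneys, and 102, 71.1 and 48.0 CPM in sham kidneys. The injured groups overlapped each other, and both lay below every sham library. The log2 difference was -1.84 ± 0.25 in AKI_PBS against sham (adjusted p = 5.45e-05) and -2.27 ± 0.26 in AKI_PTPi_mEVs against sham (adjusted p = 0.000295). AKI_PTPi_mEVs was not called against AKI_PBS (-0.42 ± 0.25, adjusted p = 0.179, 95% interval -0.97 to 0.12).

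Tmem207 (ENSMUSG00000091972.3), a transmembrane protein, had the fewest counts. It had 30, 9 and 17 counts in AKI_PTPi_mEVs kidneys, 5, 11 and 6 counts in AKI_PBS kidneys, and 128, 84 and 104 counts in sham kidneys. In CPM that was 2.75, 0.982 and 1.87 in AKI_PTPi_mEVs, 0.432, 0.943 and 0.530 in AKI_PBS, and 12.5, 7.81 and 10.6 in sham. These levels did not overlap between groups, but AKI_PTPi_mEVs and AKI_PBS were separated only after TMM scaling (0.982 against 0.943). As a share of all counts they overlapped, at 9.51e-05% in AKI_PTPi_mEVs replicate 2 and 0.000101% in AKI_PBS replicate 2. Tmem207 fell by 3.99 ± 0.40 on the log2 scale in AKI_PBS against sham (adjusted p = 5.33e-06). AKI_PTPi_mEVs was higher than AKI_PBS by 1.55 ± 0.45 (adjusted p = 0.0115), but was not called without its own replicate 1 (1.16, adjusted p = 0.0662). It was lower than sham by a log2 difference of -2.44 ± 0.35 (adjusted p = 0.00116). In AKI_PBS, 1 of the 3 libraries was above the filter's cutoff of 0.921 CPM.

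**Figure D2:**
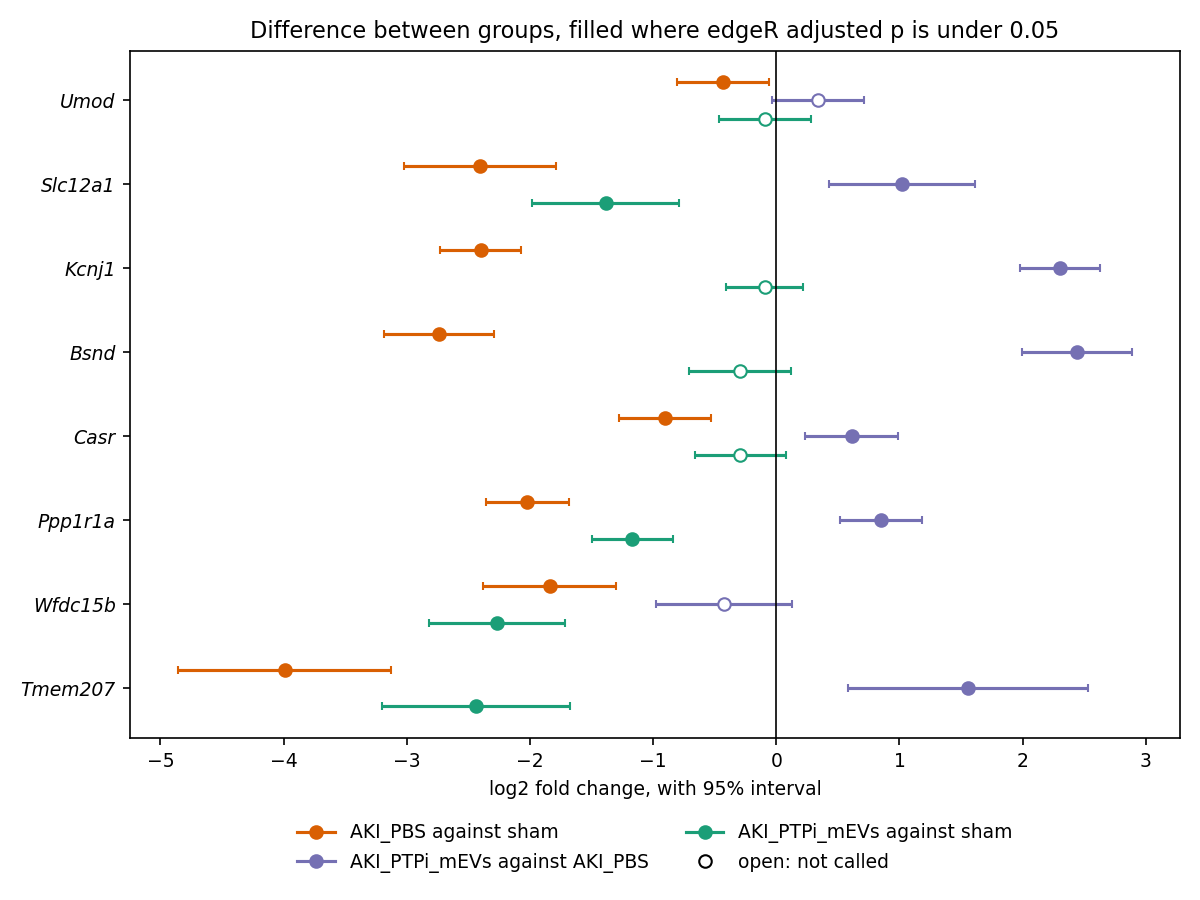
Log2 difference of each gene in the 3 comparisons, with 95% intervals computed from edgeR's test statistic, filled where the adjusted p is under 0.05. Kcnj1 and Bsnd lie near 0 in AKI_PTPi_mEVs against sham (-0.10 and -0.29), while Slc12a1, Ppp1r1a, Wfdc15b and Tmem207 lie between -1.17 and -2.44.

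The genes did not keep their proportions. Umod counts per Slc12a1 count were 5.72, 8.80 and 5.86 in AKI_PTPi_mEVs kidneys, 14.5, 9.43 and 9.46 in AKI_PBS kidneys, and 2.12, 3.19 and 2.89 in sham kidneys, so the 3 groups did not overlap. The log2 ratio of Umod to Slc12a1 was higher than in sham by 2.02 in AKI_PBS and by 1.31 in AKI_PTPi_mEVs. The log2 ratio of Kcnj1 to Slc12a1 spread from -1.51 to -0.53 over the AKI_PBS libraries and differed from sham by 0.06 (exact two-sided permutation p = 0.9), a difference whose sign turned when AKI_PBS replicate 1 (-0.23) or sham replicate 1 (-0.07) was left out. In AKI_PTPi_mEVs the ratio was higher than in sham by 1.29 and higher than in AKI_PBS by 1.23. For Bsnd the log2 ratio to Slc12a1 differed from sham by -0.29 in AKI_PBS (exact p = 0.6), and in AKI_PTPi_mEVs it was higher by 1.07 than in sham and by 1.36 than in AKI_PBS. Tmem207 ran below Slc12a1, by -1.16 in AKI_PTPi_mEVs and -1.61 in AKI_PBS, both against sham. For Ppp1r1a the ratio differed by at most 0.44. Each ratio with groups that did not overlap reached p = 0.1, the smallest that an exact test of 3 against 3 can give, and none of the 21 ratio comparisons passed after adjustment (smallest adjusted p = 0.162).

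**Figure D3:**
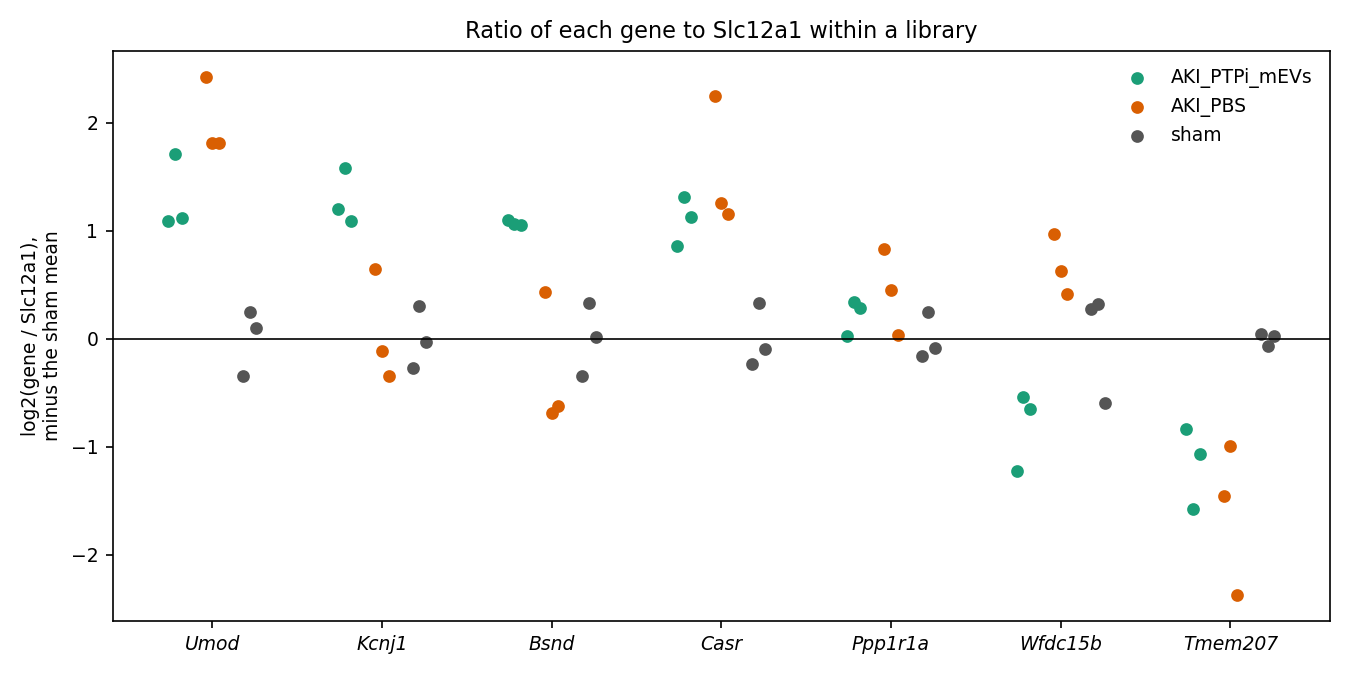
Log2 ratio of each gene to Slc12a1 within a library, minus the sham mean of that ratio, 1 point a library. For Kcnj1 the 3 AKI_PTPi_mEVs libraries lie above all AKI_PBS and sham libraries, and for Umod both injured groups lie above sham.

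Together the 8 genes took 0.191 ± 0.0276% of all counts in AKI_PTPi_mEVs, 0.135 ± 0.0265% in AKI_PBS and 0.258 ± 0.0175% in sham (SD, n = 3 each). Most of it was Umod, which made up 67.7 ± 3.52% of the members' counts in AKI_PTPi_mEVs, 81.0 ± 1.26% in AKI_PBS and 54.4 ± 3.74% in sham. Without Umod, the other 7 took 0.0619 ± 0.0131% in AKI_PTPi_mEVs, 0.0255 ± 0.00511% in AKI_PBS and 0.118 ± 0.0172% in sham.

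Per kilobase of exon, Umod led in every group, with 482, 381 and 514 CPM per kb in AKI_PTPi_mEVs, AKI_PBS and sham. In sham, Ppp1r1a followed with 167 ± 11.1 CPM per kb, then Wfdc15b with 129 ± 47.7 and Slc12a1 with 92.5 ± 17.9, and Wfdc15b did not differ from either neighbour beyond its spread. Kcnj1 (70.1), Bsnd (37.8), Casr (4.26) and Tmem207 (3.83) came next, with Casr and Tmem207 within the spread of the second. In AKI_PBS the order of the means was the same, with Ppp1r1a and Wfdc15b, and Slc12a1 and Kcnj1, within their spread of each other. In AKI_PTPi_mEVs Kcnj1 (65.6 ± 10.9 CPM per kb) stood above Slc12a1 (35.4 ± 8.90). Slc12a1, Bsnd (30.8 ± 8.18) and Wfdc15b (26.8 ± 3.09) did not differ from each other beyond their spread.

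Within groups, some libraries ran high across the genes. AKI_PTPi_mEVs replicate 1 was the highest of its group for 7 of the 8 genes, and replicate 2 was the lowest for 6. The summed level of 4 inner medulla markers in that group was 843, 684 and 838 CPM in replicates 1, 2 and 3. The 4 markers did not order these replicates alike. AKI_PBS replicate 3 was the highest of its group for 7 of the 8 genes. In AKI_PBS the inner medulla sum was 456, 424 and 184 CPM in replicates 1, 2 and 3. Most of it was Cryab, at 309, 316 and 99.8 CPM, which was not called in any comparison. The other markers of that list were also lowest in replicate 3. The sum of 8 proximal tubule markers was 4268, 3664 and 6352 CPM in the same libraries. The part of sampled kidney region in these differences was not tested.

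Other genes of the limb were taken from 6 lists of 30 genes, of which 28 were tested. In AKI_PBS against sham, 15 fell and 3 rose (27.9% and 27.8% of all genes), with a median log2 difference of -0.62. In AKI_PTPi_mEVs against AKI_PBS, 9 rose and 5 fell (25.4% and 25.8% of all genes), with a median of 0.17. In AKI_PTPi_mEVs against sham, 7 were lower and 0 higher (5.79% and 7.43% of all genes), with a median of -0.28, and between 2 and 10 were called when single libraries were left out or other settings used. Of the 7, Irx1 was called under all 17 other settings, and the others lost the call under at least 1.

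The claudins of the path between cells split. Cldn10, a claudin of the limb that lets sodium pass, had 159, 170 and 234 CPM in AKI_PTPi_mEVs kidneys, 26.8, 22.9 and 20.3 CPM in AKI_PBS kidneys, and 234, 263 and 247 CPM in sham kidneys. It fell by 3.41 ± 0.18 on the log2 scale in AKI_PBS against sham (adjusted p = 1.66e-07) and was 3.01 ± 0.18 higher in AKI_PTPi_mEVs than in AKI_PBS (adjusted p = 3.07e-07). Of 8 proximal tubule markers, 7 were called in the same directions. The segment of the tubule from which the Cldn10 counts came cannot be told in kidney RNA. Cldn19, a partner of Cldn16 in magnesium and calcium uptake, moved the same way as Cldn10, by -2.05 ± 0.24 and 1.90 ± 0.24. Cldn16 did not follow: it had 6.79, 7.53 and 8.90 CPM in AKI_PTPi_mEVs, 14.2, 11.6 and 12.1 CPM in AKI_PBS, and 12.3, 15.2 and 13.4 CPM in sham. It was lower in AKI_PTPi_mEVs than in AKI_PBS (-0.71 ± 0.19, adjusted p = 0.00827) and than in sham (-0.82 ± 0.19, adjusted p = 0.0154). Cldn14 was below the filter, with 5, 31 and 6 counts in AKI_PTPi_mEVs, 20, 2 and 3 in AKI_PBS, and 0, 0 and 1 in sham.

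Of 2 listed subunits of the sodium pump on the blood side, Atp1b1 was not called in any comparison, with differences between -0.24 and 0.25. Without AKI_PBS replicate 3 it was called lower in AKI_PBS against sham (-0.36, adjusted p = 0.042) and higher in AKI_PTPi_mEVs against AKI_PBS (0.38, adjusted p = 0.039). The pump regulator Fxyd2 had 543, 713 and 726 CPM in AKI_PTPi_mEVs kidneys, 709, 660 and 703 CPM in AKI_PBS kidneys, and 1085, 1080.2 and 928 CPM in sham kidneys. It was lower than in sham in both injured groups, by a log2 difference of -0.64 ± 0.15 in AKI_PTPi_mEVs (adjusted p = 0.0135) and -0.58 ± 0.15 in AKI_PBS (adjusted p = 0.00484).

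Among 9 tested genes listed as kinases and other regulators of the cotransporter, 2 rose and 4 fell in AKI_PBS against sham, a share called near the 55.7% of all genes. Cab39 and Cab39l, related scaffolds of the kinases that phosphorylate the cotransporter, moved in opposite directions. Cab39l fell by 1.28 ± 0.14 in AKI_PBS against sham and was 1.33 ± 0.14 higher in AKI_PTPi_mEVs than in AKI_PBS, and Cab39 rose by 0.84 ± 0.13 and was lower by a log2 difference of -0.86 ± 0.13. The kinase gene Oxsr1 rose by 0.98 ± 0.18 in AKI_PBS against sham, Wnk1 fell by 0.67 ± 0.18 and Ptger3, a prostaglandin receptor, fell by 0.98 ± 0.23. Wnk4 was at the threshold in AKI_PBS against sham (-0.32 ± 0.13, adjusted p = 0.0491) and lost its call under 11 of 17 other settings. Stk39, which encodes the kinase SPAK, was not called, at 0.24 ± 0.20.

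Of 6 listed transcription regulators, 5 fell in AKI_PBS against sham (27.9% of all genes), and 2 rose in AKI_PTPi_mEVs against AKI_PBS, a share near the 25.4% of all genes. Esrrg, an estrogen-related receptor, had 56.7, 60.6 and 67.8 CPM in AKI_PTPi_mEVs kidneys, 29.3, 25.6 and 20.2 CPM in AKI_PBS kidneys, and 56.0, 66.3 and 66.0 CPM in sham kidneys. Its coactivator Ppargc1a fell by 1.03 ± 0.13 in AKI_PBS and was 0.67 ± 0.13 higher in AKI_PTPi_mEVs than in AKI_PBS. Pou3f3 and Esrrb were lower in AKI_PBS than in sham, by log2 differences of -0.96 ± 0.20 and -0.84 ± 0.26. Irx1, a homeobox factor of the developing nephron, was low in both injured groups, with 5.41, 3.93 and 4.95 CPM in AKI_PTPi_mEVs, 3.11, 4.37 and 4.95 CPM in AKI_PBS, and 16.2, 13.2 and 18.0 CPM in sham. Its log2 difference was -1.93 ± 0.24 in AKI_PBS (adjusted p = 2.63e-05) and -1.72 ± 0.24 in AKI_PTPi_mEVs (adjusted p = 0.000889), both against sham.

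Among 6 other products of the segment, Sostdc1, a secreted antagonist of bone morphogenetic proteins, fell by 2.43 ± 0.17 in AKI_PBS against sham and was 2.34 ± 0.17 higher in AKI_PTPi_mEVs than in AKI_PBS. The potassium channel gene Kcnj16 fell by 1.07 ± 0.14 and was then 1.29 ± 0.14 higher, and Hpn, a protease that releases uromodulin, fell by 1.16 ± 0.16 and was 0.86 ± 0.16 higher. Slc9a3, a sodium-hydrogen exchanger that the proximal tubule also uses, was lower in AKI_PTPi_mEVs than in AKI_PBS (-0.69 ± 0.18) and than in sham (-0.70 ± 0.18). Egf had 203, 89.7 and 211 CPM in AKI_PTPi_mEVs kidneys, 135, 163 and 651 CPM in AKI_PBS kidneys, and 759, 736 and 797 CPM in sham kidneys. AKI_PBS replicate 3 was again the library of its group nearest to sham. Egf was called lower in AKI_PTPi_mEVs against sham (-2.18 ± 0.59, adjusted p = 0.04), a call lost under 7 of 17 other settings. In AKI_PBS against sham it was not called (-1.27 ± 0.57, adjusted p = 0.0845), but without AKI_PBS replicate 3 it was (-2.36, adjusted p = 9.71e-05). With all 9 libraries it was also called under limma voom, the stricter low-count filter and the replicate block. Without AKI_PBS replicate 3 the Egf difference in AKI_PTPi_mEVs against AKI_PBS was 0.18, where with it the difference was -0.91, and neither was called. Without AKI_PBS replicate 1 it was called lower (-1.27, adjusted p = 0.0414). Ptgs2, a prostaglandin enzyme listed here for the macula densa at the end of the limb, had 3.21, 2.07 and 2.75 CPM in AKI_PTPi_mEVs, 10.5, 30.2 and 19.9 CPM in AKI_PBS, and 4.51, 2.42 and 3.25 CPM in sham. It rose by 2.57 ± 0.37 in AKI_PBS against sham (adjusted p = 8.04e-05) and differed by -2.90 ± 0.38 in AKI_PTPi_mEVs against AKI_PBS (adjusted p = 5.54e-05). Nos1, also listed for the macula densa, was not called in any comparison. The cells in which Ptgs2 rose cannot be told in kidney RNA.

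**Figure D4:**
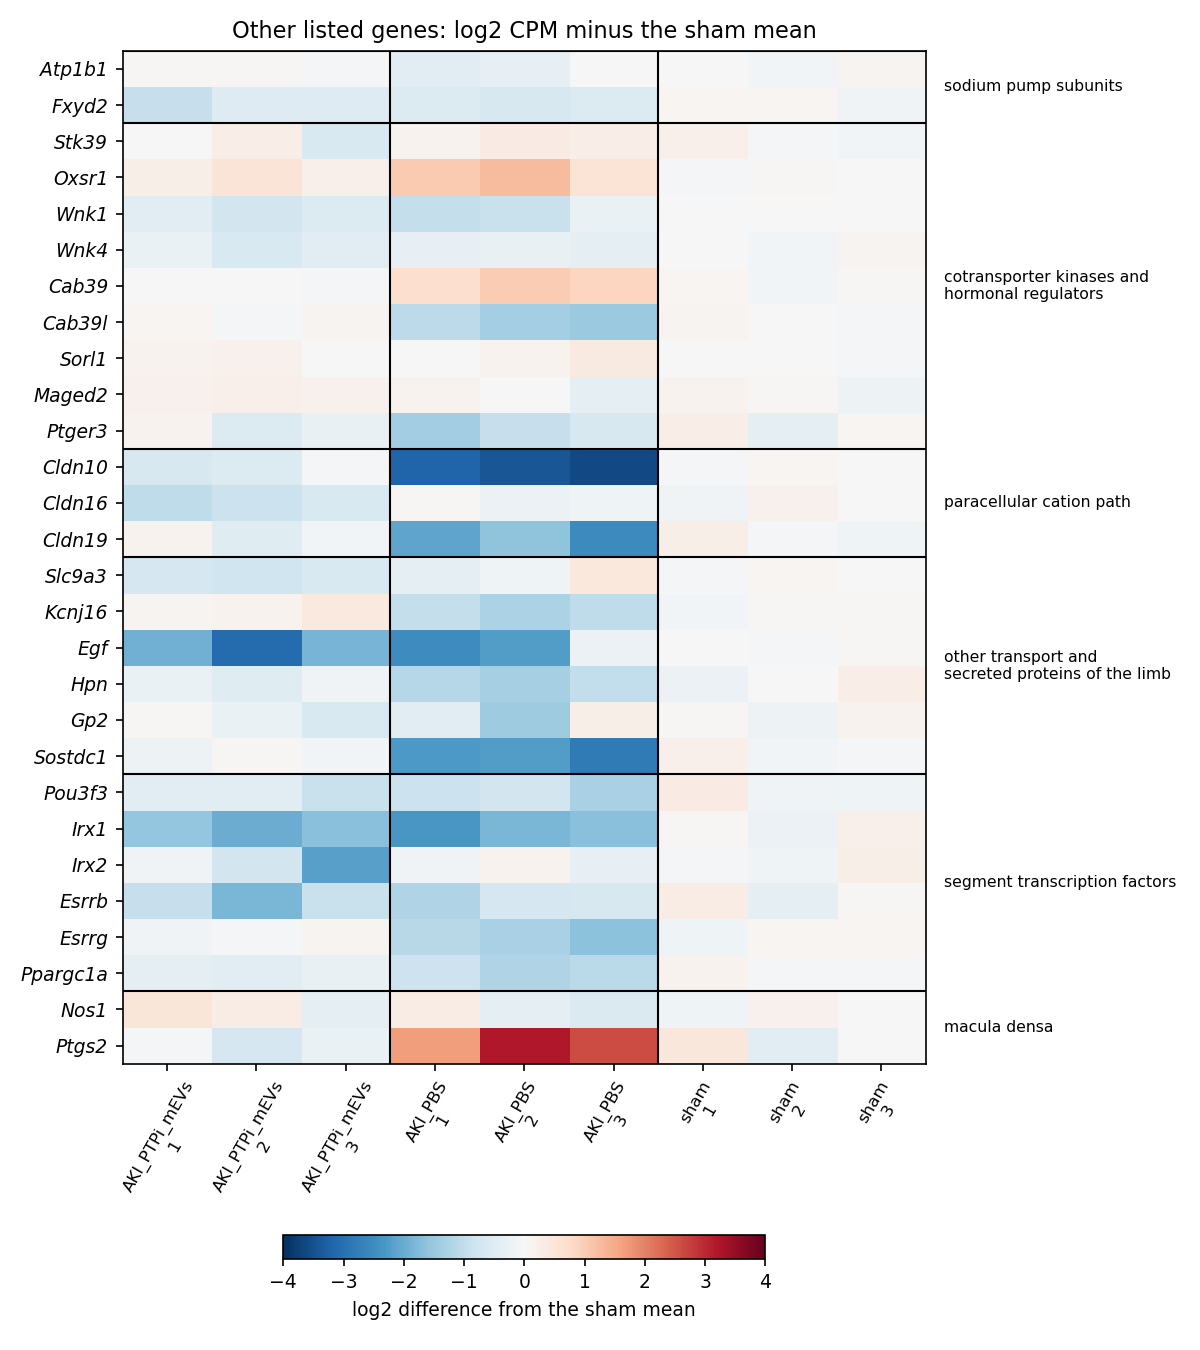
Log2 CPM of the 28 tested genes of the 6 lists in each library, minus the sham mean of the gene, in blue where lower and red where higher. Cldn10 and Sostdc1 are low in the 3 AKI_PBS libraries, Ptgs2 is high there, and Irx1 is low in all 6 libraries of injured kidneys.

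Lists of markers of other cell types are read against all genes, of which 27.8% were called higher and 27.9% lower in AKI_PBS against sham, and 25.4% higher and 25.8% lower in AKI_PTPi_mEVs against AKI_PBS. Of 8 proximal tubule markers, 7 fell in AKI_PBS against sham and 7 rose in AKI_PTPi_mEVs against AKI_PBS, and their summed level was 8098 to 11916 CPM in AKI_PTPi_mEVs, 3664 to 6352 CPM in AKI_PBS and 10652 to 13435 CPM in sham. Of 4 inner medulla markers, 3 fell and 3 rose in the same comparisons (684 to 843, 184 to 456 and 735 to 1187 CPM). The AKI_PBS sum was mostly Cryab, the marker of that list that was not called. Of 7 injured tubule markers, 7 rose in AKI_PBS against sham, 4 fell in AKI_PTPi_mEVs against AKI_PBS and 6 were higher in AKI_PTPi_mEVs than in sham, where 7.43% of all genes were (6234 to 11974, 8914 to 13051 and 1664 to 2024 CPM). Most of that sum was Spp1, which averaged 6443 CPM in AKI_PTPi_mEVs, 7822 CPM in AKI_PBS and 1351 CPM in sham. The sum therefore says little of the other markers of the list. Distal convoluted tubule markers gave 1 higher and 2 lower of 4 in AKI_PBS against sham, and in AKI_PTPi_mEVs against AKI_PBS 0 higher and 1 lower. Podocyte markers gave 3 higher of 4 in AKI_PBS against sham, and 3 lower of 4 in AKI_PTPi_mEVs against AKI_PBS. In AKI_PBS against sham, 3 of 5 principal cell and 1 of 5 intercalated cell markers fell. Endothelial markers gave 1 higher and 1 lower of 5, leukocyte markers 4 higher and 1 lower of 7, and 1 of 4 fibroblast markers rose. The intercalated, endothelial and fibroblast shares there were near or below those of all genes. In AKI_PTPi_mEVs against AKI_PBS, principal cell markers gave 3 higher and 1 lower of 5, and intercalated cell markers 1 higher and 2 lower of 5. The endothelial list gave 0 higher and 2 lower of 5, the leukocyte list 2 higher and 3 lower of 7, and the fibroblast list 1 higher and 1 lower of 4. The 2 nuclear RNAs Malat1 and Neat1 were higher in AKI_PBS, at 3219 to 3473 CPM in AKI_PTPi_mEVs, 6584 to 10156 CPM in AKI_PBS and 3168 to 3531 CPM in sham. Of the neutrophil genes of the leukocyte list, S100a8 was at 0 in all 3 sham libraries and S100a9 in sham replicate 2. No other marker of these lists was at 0 in any library. Itgam, S100a8 and S100a9 were above the filter's cutoff of 0.921 CPM only in AKI_PBS libraries. They were tested only because they were high there. Their calls, higher against sham and lower in AKI_PTPi_mEVs against AKI_PBS, are therefore not read as a result. The part of these shifts in the results above was not tested.

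The profile of the 8 genes was compared with that of 11326 other genes whose log2 CPM averaged 2 or more, by the root mean square difference of centred log2 CPM over the 9 libraries. The nearest were Colgalt2 (0.132), Egfl6 (0.158), Sfrp1 (0.160), Ppm1k (0.164) and Pik3c2g (0.165). Colgalt2 differed by -2.08 in AKI_PBS against sham, by 1.17 in AKI_PTPi_mEVs against AKI_PBS and by -0.91 in AKI_PTPi_mEVs against sham. Of the 8, Ppp1r1a lay nearest to their mean profile, at 0.108, followed by Slc12a1 at 0.282, while Umod (0.678), Wfdc15b (0.684) and Tmem207 (0.793) lay farthest.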

How the data were processed

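RNA from 9 kidney libraries was measured by sequencing. Extraction was by phenol-chloroform, and a Tn5-based kit made libraries out of 100 ng total RNA, per the labels' protocols. The deposited values are raw whole-number counts per gene, made with STAR and HTSeq per the submitters' processing notes, without versions. Those notes name GRCh38.p14, a human build, while the identifiers are mouse Ensembl ones, so the build was not settled and coordinates here are only RefSeq's on GRCm38. Whether counting used strand is not given in the sources used here. Overlapping antisense genes cannot be told apart. Of the identifiers, 52073 had a symbol and 4850 had none.

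The counts were tested with edgeR 4.0.16 in R 4.3.3, using filterByExpr over groups (17036 genes kept), TMM factors (0.939 to 1.08), and glmQLFit with glmQLFTest on all 9 libraries, 1 mean per group, 6 residual degrees of freedom, Benjamini-Hochberg adjustment over all genes of a comparison and a threshold of 0.05. The script was tested on simulated data. Log2 CPM for profiles used a prior count of 2, and within-library ratios were compared by exact two-sided permutation tests. Exon lengths and overlaps came from GENCODE M21, in which 0% of the 50-base words of the 8 genes were shared with another gene. RefSeq promoter entries were found for 6 of the 8 genes. All 8 genes are named, with called genes of the limb lists, at least the 2 of smallest adjusted p where a comparison called that many, and the 5 nearest profiles. For other cell types counts, sums and a few markers are given. The genes and lists were chosen with earlier results of these data known. Alternatives were library scaling (library totals, relative log expression), low-count filters, DESeq2 1.42.0, limma 3.58.1 voom, a replicate block, fits of only the groups compared, and leaving out each library. No libraries of a group were duplicates. Molecular identifiers are not mentioned in the labels. A few listed genes are not reported here.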

Additional observations from a re-analysis of the deposited data

How the results depend on the processing

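Over 17 other settings, the number of the 8 genes called was 7 to 8 in AKI_PBS against sham, 5 to 7 in AKI_PTPi_mEVs against AKI_PBS and 4 in AKI_PTPi_mEVs against sham, no gene's difference changed sign, and 396 of 408 values kept their call, the exceptions being Umod and Tmem207. Umod in AKI_PBS against sham ranged from -0.65 to -0.33 (adjusted p 0.00307 to 0.168), with 0.051 under relative log expression factors, 0.0626 under library totals and 0.0695 with only the groups compared. Umod in AKI_PTPi_mEVs against AKI_PBS passed with no low-count filter (0.38, adjusted p = 0.0452). Same-numbered libraries correlated between -0.187 and 0.111, so no shared effect of the number was seen. The labels do not say whether these libraries were paired, and the correlations cannot settle it. With the replicate block 8, 6 and 4 of the genes were called. Genes called in AKI_PTPi_mEVs against sham ranged from 878 to 3395 when single libraries were left out, against 2252 (878 without AKI_PTPi_mEVs replicate 2, 3395 without AKI_PBS replicate 3), and listed genes of the limb from 2 to 10. Library totals shifted the median of all genes by -0.108 in AKI_PTPi_mEVs against AKI_PBS. The log2 ratio of Kcnj1 to Slc12a1 in AKI_PBS against sham ran from -0.23 to 0.26 when single libraries were left out. With Umod in place of Slc12a1 the sign turned in AKI_PBS against sham for Kcnj1 (-1.95), Casr (-0.46), Ppp1r1a (-1.58) and Wfdc15b (-1.35), in AKI_PTPi_mEVs against AKI_PBS for Casr (0.26) and Ppp1r1a (0.49), and in AKI_PTPi_mEVs against sham for Kcnj1 (-0.016), Bsnd (-0.24), Casr (-0.21) and Ppp1r1a (-1.09). Tmem207, at 5 to 11 counts in AKI_PBS, is limited by depth.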
